A study of Mus musculus with 8 samples.

Results

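The genes examined were 47 genes of DNA replication and cell division, taken by name from the table of normalised read counts. All 47 stood in that table of 20681 genes, and 46 of them passed the filter on low values (at least 10 normalised reads in at least 4 of 8 libraries), as did 14949 genes in all. The remaining gene, Ttk, which encodes a kinase of the spindle checkpoint, had 4.4 to 17.4 normalised reads and was not tested. Of the 47, 21 serve the copying of DNA (origin licensing, polymerases, deoxynucleotide supply, chromatin assembly and E2F transcription factors) and 26 serve the cell cycle engine and mitosis. No measured value entered their choice, but they were chosen with earlier results of these data known.

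The values came from poly-A RNA of whole mouse knee joints, in 4 libraries labelled control and 4 labelled knockout. The design text gives the mice as Acan-Cre;Loxl2 fl/fl, a strain in which Cre recombinase made under the aggrecan gene deletes Loxl2, a collagen-crosslinking enzyme, in cells that express Cre, such as chondrocytes. It calls the controls vehicle-treated, and the labels name no agent for the knockout group, so vehicle treatment and genotype cannot be told apart. The library names give the controls as wild type for LOXL2, and all 8 contain the letters DMM, for which no meaning is given. No age, sex or time point is given. The labels do not say that the libraries of a group came from separate animals, so the p-values measure the spread between these libraries only.

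A cell that divides first loads the MCM helicase onto replication origins, a step that needs Cdc6. Cyclin E then helps to start S phase, in which the helicase is completed by Cdc45 and the GINS complex and DNA is copied by the polymerases with the sliding clamp PCNA. Cyclin A, cyclin B and Cdk1 carry the cell into mitosis, the Aurora and Polo kinases build and check the spindle, and the anaphase-promoting complex with Cdc20 and Ube2c ends it. The genes are switched on together in cycling cells through E2F factors and, for mitotic genes, the MuvB, B-Myb and FoxM1 proteins. In an adult knee most muscle, cartilage and fibrous cells rest, whereas blood precursors of the marrow, and fibroblasts and macrophages after injury, are known to divide.

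Counting depth was 13991000 to 17411617 reads per library. The targeted gene was called higher, not lower, in the libraries labelled knockout (log2 difference 1.44 ± 0.4 SE, limma adjusted p = 0.0294). Loxl2 had 282, 349, 1135 and 311 normalised reads in the controls, given here and throughout in the order of replicates 1 to 4, against 893, 1468, 960 and 1518 in those labelled knockout. The deletion acts only in cells that express Cre, and whether it took place was not tested, so the groups are called by their labels. Markers of cartilage were present in every library (Acan 52.3 to 544, Col2a1 146 to 2721 normalised reads), but those of skeletal muscle were far higher (Acta1 214458 to 435176). In whole tissue, fewer cells of a type and less RNA per cell cannot be told apart.

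Cell division and replication genes did not move as a block between the groups. Of the 46 tested, limma called 1 higher at an adjusted p under 0.05 (2.17%) and 0 lower, where the background over all tested genes was 23.2% called, 11.6% in each direction. Within the members' own range of mean value, 14.2 to 653 normalised reads, 17.5% of 10768 genes were called. The call was Ect2, which encodes the exchange factor that starts the furrow of cytokinesis. The log2 differences of the libraries labelled knockout from control ran from -0.72 to 1.17, with 22 above 0 and 24 below, and their median was -0.01 against 0.00 for all tested genes. At an unadjusted p under 0.05 there were 10 members (5 higher, 5 lower), against a background of 38.4%. edgeR and DESeq2, run on the recovered whole reads, each called Ect2 alone, with backgrounds of 22.2% and 27.6%.

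**Figure D1:**
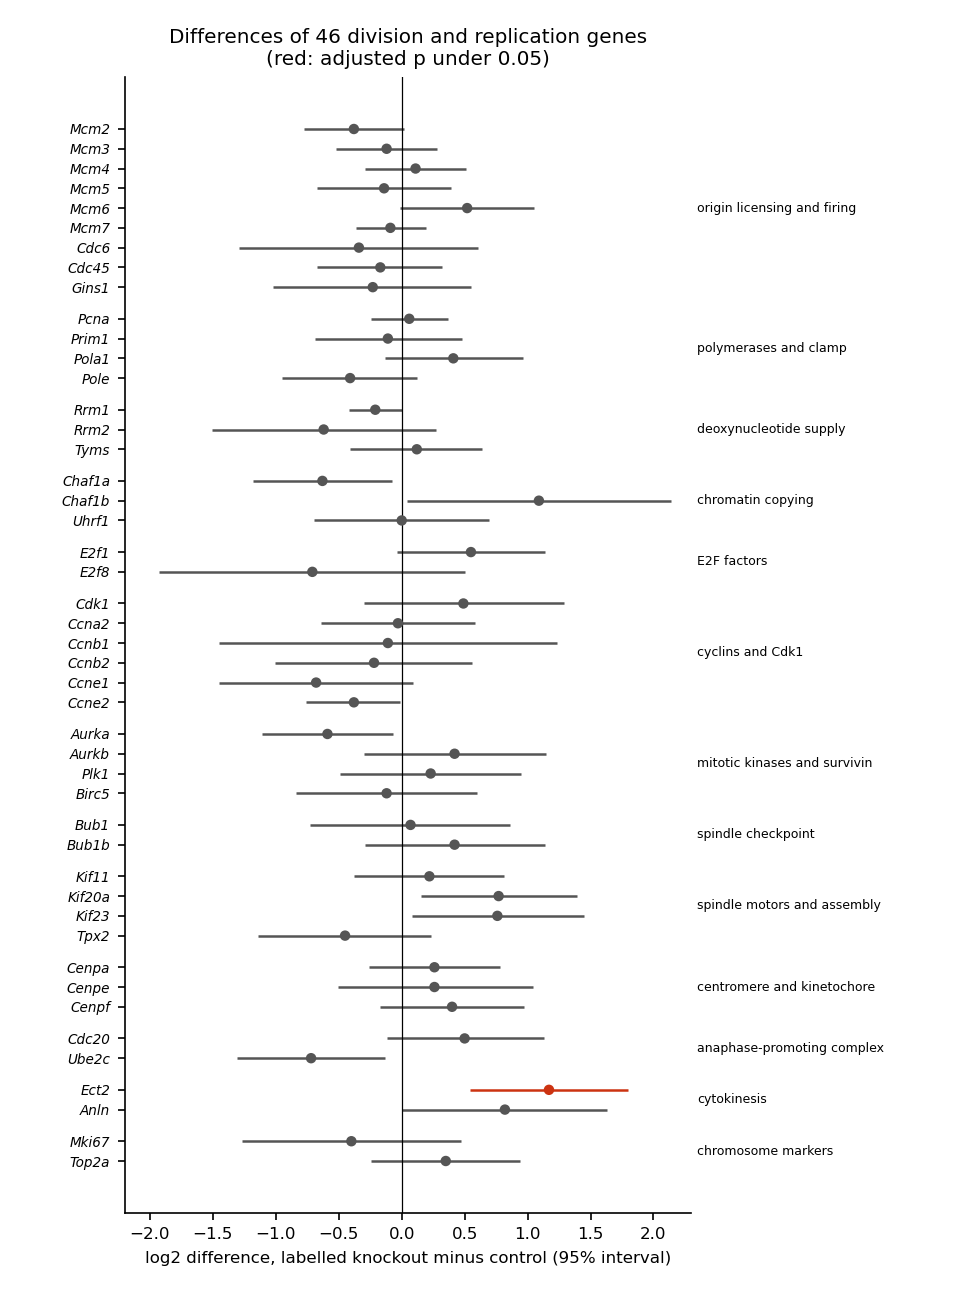
Log2 difference of the libraries labelled knockout minus control (x axis) with its 95% interval from limma for 46 genes (y axis), grouped by role; n = 4 libraries per group. Ect2 (red, 1.17) is the only gene called, and the points scatter on either side of 0.

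The width of the intervals limits that statement. The 95% interval lay wholly within a log2 change of 1 in either direction for 22 of the 46 genes and reached a change that large for the other 24. Pcna (-0.24 to 0.37) and Mcm7 (-0.36 to 0.19) were among the narrowest, while Ccnb1 (-1.45 to 1.23) reached beyond 1 on each side. The median standard error was 0.28 for the members and 0.17 for all tested genes, and the median SD of log2 values within a group was 0.43 (control) and 0.34 (knockout) for the members against 0.25 in each group for genes of their range of mean value.

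Ect2 (chromosome 3, 27097222 to 27153878, minus strand of mm10) had 8.65, 14.1, 11.2 and 12 normalised reads in control replicates 1 to 4 and 26.9, 22.2, 27.2 and 31.7 in the libraries labelled knockout. Every library labelled knockout lay above every control library, and the groups did not overlap. The mean rose from 11.5 ± 2.27 to 27.0 ± 3.86 (SD, n = 4 each), or 1.17 ± 0.28 (SE) in log2 units (limma adjusted p = 0.0177), and the exact two-sided permutation test gave 0.0286, the smallest p that 4 against 4 libraries allow. The call was lost without knockout replicate 4 (difference 1.09, limma adjusted p = 0.0567), under quantile normalisation (0.92, 0.0561) and with the replicate number as a block (1.17, 0.0574). Over all alternatives that tested it, its adjusted p (limma, edgeR or DESeq2) ran from 0.00812 to 0.0574. Its counts were low, with 8 to 36 reads in a library.

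The promoters of 6 members are printed here because they show the letters through which these genes are usually grouped: E2F sites in replication genes, and CHR elements and CCAAT boxes, bound by MuvB complexes and NF-Y, in mitotic genes. Each line is the 250 bases before the RefSeq start, 5′ to 3′ on the gene's strand (GRCm38.p6, the assembly of mm10). Capitals mark matches on either strand to TTTCCCGC, TTTCGCGC, TTTGCCGC or TTTGGCGC (E2F), TTTGAA (CHR) and CCAAT.
Ect2: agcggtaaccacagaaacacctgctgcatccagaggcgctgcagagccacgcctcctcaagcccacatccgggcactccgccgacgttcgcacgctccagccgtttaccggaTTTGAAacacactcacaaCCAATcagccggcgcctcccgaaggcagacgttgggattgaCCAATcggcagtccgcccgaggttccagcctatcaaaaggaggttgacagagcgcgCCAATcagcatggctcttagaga
Mki67: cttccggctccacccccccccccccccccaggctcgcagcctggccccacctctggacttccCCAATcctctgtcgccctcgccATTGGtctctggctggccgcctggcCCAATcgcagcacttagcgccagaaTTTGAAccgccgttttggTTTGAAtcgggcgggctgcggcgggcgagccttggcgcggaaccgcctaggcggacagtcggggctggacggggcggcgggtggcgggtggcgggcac
Top2a: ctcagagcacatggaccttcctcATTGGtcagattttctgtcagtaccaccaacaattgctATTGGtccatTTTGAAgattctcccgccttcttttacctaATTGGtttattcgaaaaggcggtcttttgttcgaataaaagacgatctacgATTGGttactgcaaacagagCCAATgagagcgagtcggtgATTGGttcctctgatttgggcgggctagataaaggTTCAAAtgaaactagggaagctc
Cdk1: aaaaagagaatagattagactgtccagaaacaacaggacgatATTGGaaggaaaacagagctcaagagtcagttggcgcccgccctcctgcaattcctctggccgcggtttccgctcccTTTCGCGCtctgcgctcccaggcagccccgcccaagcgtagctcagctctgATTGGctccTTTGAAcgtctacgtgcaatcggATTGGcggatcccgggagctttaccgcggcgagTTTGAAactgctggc
Mcm6: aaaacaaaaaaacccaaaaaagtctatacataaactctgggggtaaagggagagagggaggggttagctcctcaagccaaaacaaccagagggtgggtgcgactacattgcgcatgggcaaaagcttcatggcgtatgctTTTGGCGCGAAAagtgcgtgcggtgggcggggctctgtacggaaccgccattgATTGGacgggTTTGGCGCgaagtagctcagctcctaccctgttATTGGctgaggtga
Cdc6: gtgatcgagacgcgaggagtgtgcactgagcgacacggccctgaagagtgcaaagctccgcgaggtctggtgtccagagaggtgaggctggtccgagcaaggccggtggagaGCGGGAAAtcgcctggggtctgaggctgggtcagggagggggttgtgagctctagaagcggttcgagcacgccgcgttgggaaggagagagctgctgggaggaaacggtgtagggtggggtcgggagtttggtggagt
These windows are Ect2 chr3:27153855-27154104 (-), Mki67 chr7:135716380-135716629 (-), Top2a chr11:99024190-99024439 (-), Cdk1 chr10:69352913-69353162 (-), Mcm6 chr1:128359706-128359955 (-) and Cdc6 chr11:98907901-98908150 (+). The Ect2 window, the gene that was called, held 1 CHR and 3 CCAAT matches, as many CCAAT matches as that of Mki67, which was not called. Cdk1 held all 3 kinds, and in Mcm6 the first pair of E2F matches overlap each other on opposite strands.

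Among the 39 members with a promoter in the RefSeq table, CCAAT was found in 32 (82.1%), against 35.9% of 16526 promoters of the same length, and 2 or more CCAAT matches in 18 (46.2%, against 11.7%). TTTGAA was found in 11 (28.2%, against 14.1%), always together with CCAAT, a combination that 5.2% of all promoters hold. The E2F letters were found in 6 (15.4%, against 2.5%): 5 of the 18 replication members and 1 of the 21 division members. A match is a description of these letters, not a site in use.

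The helicase genes are described first. Mcm2 (chromosome 6, 88883474 to 88898780), a subunit of the MCM helicase, had 214, 251, 173 and 275 normalised reads in control replicates 1 to 4 and 175, 170, 216 and 138 in the libraries labelled knockout. The groups overlapped, and the difference of -0.38 ± 0.18 (SE) was not called (limma adjusted p = 0.151). Mcm6 (chromosome 1, 128331590 to 128359664), another subunit of that ring, went the other way, with 119, 139, 139 and 141 in the controls and 118, 191, 211 and 290 in the libraries labelled knockout. Knockout replicate 1 lay below all controls and the other 3 above them, the difference was 0.52 ± 0.24 (adjusted p = 0.139), and it was called without knockout replicate 1 (0.75, adjusted p = 0.0252). Mcm5 had 83.3, 103, 63.6 and 117 in the controls and 71.8, 62.4, 104 and 91.5 in the knockout group (-0.14 ± 0.24). Mcm3, Mcm4 and Mcm7 differed by -0.12, 0.11 and -0.09.

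Cdc6, which loads the helicase, had 34.6, 49.5, 15 and 49.3 normalised reads in the controls and 21.9, 27.4, 45.7 and 17.6 in the knockout group. Control replicate 3 was the lowest of all 8 libraries and knockout replicate 3 the highest of its group, and the difference was -0.34 ± 0.43. Cdc45 and Gins1, which complete the active helicase, differed by -0.17 and -0.23. None of the 9 origin genes had an unadjusted p under 0.05.

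Of the genes that copy DNA, Pcna (chromosome 2, 132249162 to 132253314), the sliding clamp, had 463, 439, 352 and 571 normalised reads in the controls and 441, 490, 498 and 455 in the knockout group, with a difference of 0.06 ± 0.14. All 4 libraries labelled knockout lay inside the control range. Per kilobase of annotated exon it was also the highest of the 47, with a mean of 190.0 normalised reads per kilobase in the controls and 196 in the knockout group, whereas Ect2 rose from 2.14 to 5.01 on that scale. Pcna-ps1 and Pcna-ps2 are pseudogenes named after it and could share its reads. Prim1 and Pola1 of the priming polymerase and Pole of the leading-strand polymerase differed by -0.11, 0.41 and -0.41.

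Rrm1 and Rrm2 encode the large and small subunits of ribonucleotide reductase, which makes deoxynucleotides. Rrm2, the subunit whose level rises in S phase, had 141, 146, 59.8 and 265 normalised reads in the controls and 71.8, 94.1, 130 and 66.0 in the knockout group (-0.62 ± 0.40). Control replicates 3 and 4 were the lowest and the highest of all 8, so the control range enclosed the knockout range, and without control replicate 3 the fall was called (-1, limma adjusted p = 0.0402). Rrm1 had means of 700.0 ± 47.7 and 606 ± 54.1 (-0.21 ± 0.09, adjusted p = 0.13). Tyms, which makes thymidylate, had 27.0, 32.3, 40.2 and 39.4 in the controls and 34.9, 33.4, 33.7 and 49.3 in the knockout group (0.12 ± 0.24).

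The subunits of the chromatin assembly factor CAF-1 pointed in opposite directions. Chaf1a had 62.7, 52.5, 64.5 and 43.8 normalised reads in the controls and 43.9, 23.9, 38.1 and 38.7 in the knockout group (-0.63 ± 0.25, limma adjusted p = 0.0878). Chaf1b had 42.2, 19.2, 9.35 and 25.2 against 68.8, 23.1, 59.8 and 46.7 (1.09 ± 0.47, adjusted p = 0.117). Each pair of groups overlapped in at least 1 library. Of the exon bases of Chaf1a, 52.5% are shared with Ubxn6 on the opposite strand, whose means were 385 and 296; the use of strand in counting is not given in the sources used here, so its count is uncertain.

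Uhrf1, which carries DNA methylation onto the new strand, had 112, 80.8, 49.5 and 131 normalised reads in the controls and 85.8, 64.1, 125 and 85.4 in the knockout group, a difference of 0.00 ± 0.31 with overlapping groups. E2f1, an activator of S-phase genes, had 61.6, 41.4, 37.4 and 48.2 against 57.8, 48.7, 77.2 and 100 (0.55 ± 0.26, limma adjusted p = 0.153). E2f8, a repressor of E2F targets, had 31.4, 56.5, 18.7 and 82.2 against 13, 18, 60.9 and 24.6 (-0.71 ± 0.54, adjusted p = 0.363). In E2f8 the single highest libraries of the groups were control replicate 4 and knockout replicate 3, and the groups overlapped widely. By limma, edgeR and DESeq2 alike 0 of the 21 replication members were called, 3 had an unadjusted limma p under 0.05, and their median difference was -0.12.

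**Figure D2:**
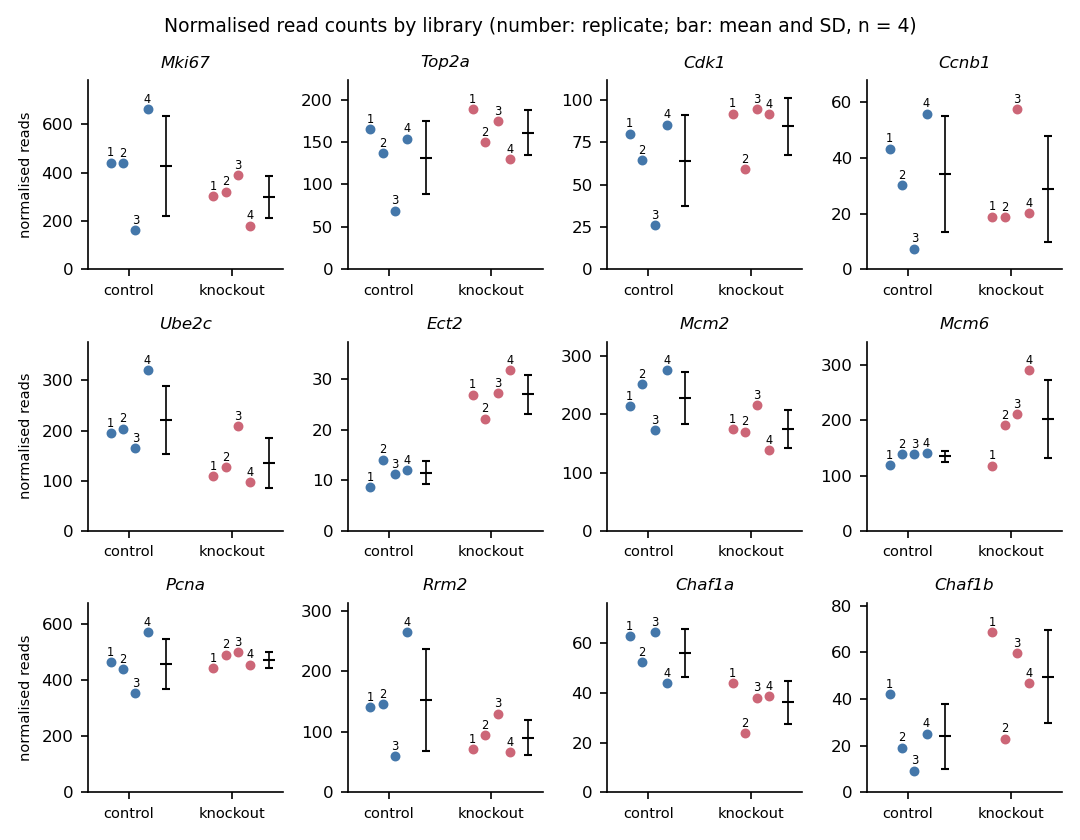
Normalised read counts (y axis, from 0) of 12 genes in each library, with the replicate number above each point and the group mean ± SD (n = 4) as a bar. The groups are separate for Ect2, while control replicate 3 is the lowest control for Mki67, Top2a, Cdk1, Ccnb1 and Rrm2.

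Among the cyclins, the E-type genes that open S phase gave negative differences that did not pass the test. Ccne1 had 36.8, 39.4, 25.2 and 54.8 normalised reads in the controls and 17.0, 24.8, 40.2 and 16.7 in the knockout group (-0.68 ± 0.35, limma adjusted p = 0.179). Ccne2 had 70.3, 83.8, 79.4 and 92.0 against 70.8, 56.4, 66.3 and 55.5 (-0.38 ± 0.17, adjusted p = 0.126). Of its exon bases, 17.4% are shared with Ints8 on the opposite strand, whose means were 232 and 197, so its count is uncertain. The overlap in Ccne2 came from control replicate 1 and knockout replicate 1, which were nearly equal.

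The mitotic cyclins and their kinase differed less than their spread. Ccna2 had 99.5, 96.9, 44.9 and 103 normalised reads in the controls and 76.8, 85.5, 95.7 and 66.0 in the knockout group (-0.03 ± 0.27). It shares 12.5% of its exon bases with Exosc9 on the opposite strand, whose means were 205 and 178. Ccnb1 had 43.3, 30.3, 7.48 and 55.9 against 18.9, 18.8, 57.6 and 20.2 (-0.11 ± 0.60), the widest error of the 46. Cdk1 (chromosome 10, 69335146 to 69352938) had 80, 64.6, 26.2 and 85.4 against 91.8, 59.0, 94.6 and 91.5 (0.49 ± 0.36), and Ccnb2 differed by -0.22 ± 0.35. For all 4 genes control replicate 3 was the lowest of the 8 libraries.

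Of the mitotic kinases, Plk1, the Polo kinase, had 45.4, 49.5, 24.3 and 50.4 normalised reads in the controls and 51.9, 44.5, 73.9 and 30.8 in the knockout group (0.23 ± 0.32). Aurkb, of the chromosomal passenger complex, had 35.7, 29.3, 19.6 and 34.0 against 45.9, 22.2, 56.5 and 40.5 (0.42 ± 0.33). Aurka, the centrosomal Aurora kinase, lay on the other side of 0 (-0.59 ± 0.23, limma adjusted p = 0.0932), as did Birc5, the survivin gene (-0.12 ± 0.32). The spindle checkpoint genes Bub1 and Bub1b differed by 0.07 and 0.42.

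The kinesin gene Kif23, whose product works with Ect2 at the midzone, had 36.8, 20.2, 15.9 and 35.1 normalised reads in the controls and 45.9, 40.2, 54.4 and 37.0 in the knockout group. Its groups did not overlap, although control replicate 1 and knockout replicate 4 were nearly equal, and the difference of 0.76 ± 0.31 was not called (limma adjusted p = 0.0977, exact permutation p = 0.0286). Kif20a, another midzone kinesin, had means of 22.1 ± 4.33 and 39.2 ± 11.3 (0.77 ± 0.28, adjusted p = 0.0713), and shares 29.3% of its exon bases with Cdc23 on the opposite strand. Anln, the anillin gene of the contractile ring, had 54.1, 27.3, 54.2 and 69.0 against 107, 112, 43.5 and 107 (0.82 ± 0.37, adjusted p = 0.129). Knockout replicate 3 alone lay among the controls for Anln, and without it the rise was called (1.14, adjusted p = 0.0247). Ect2 and Kif23 were the only members whose groups did not overlap (4.35%, both higher), where the background was 25.1% of all tested genes, 11.7% of them higher and 13.4% lower.

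The other spindle and centromere genes were spread around small values. Kif11, the motor that separates the poles, differed by 0.22 and Tpx2, which nucleates spindle microtubules, by -0.45. Cenpa, Cenpe and Cenpf of the centromere and kinetochore differed by 0.26, 0.26 and 0.40. Cdc20, the activator of the anaphase-promoting complex, differed by 0.50 ± 0.28.

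Ube2c, the ubiquitin-conjugating enzyme of that complex, had the lowest difference of all members. It had 195, 204, 165 and 320 normalised reads in the controls and 109, 127, 209 and 97.7 in the knockout group, and the groups overlapped in knockout replicate 3 only. The difference was -0.72 ± 0.27 (limma adjusted p = 0.0754), and it was called without knockout replicate 3 (-0.95, adjusted p = 0.0179). Ube2c (chromosome 2, 164769898 to 164778822) overlaps Tnnc2, a fast-muscle troponin gene on the opposite strand, with 592 shared exon bases, 22.8% of Ube2c and 74.0% of Tnnc2. Tnnc2 was listed at means of only 11.9 ± 3.37 and 12.2 ± 5.55, whereas Tnni2, the fast troponin I gene, named like Tnnc2 after its value was seen, was at 104219 ± 8326 and 73309 ± 7892. How reads over the shared bases were assigned was not tested, and the count of Ube2c is uncertain for that reason.

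The general markers of cycling cells went opposite ways. Mki67 (chromosome 7, 135689784 to 135716361), the Ki-67 gene, had 441, 440, 161 and 663 normalised reads in the controls and 302, 321, 388 and 181 in the knockout group (-0.40 ± 0.39, limma adjusted p = 0.487). Without control replicate 3 its fall was called (-0.81, adjusted p = 0.0488). Top2a (chromosome 11, 98992943 to 99024189), the topoisomerase that untangles chromosomes, had 165, 137, 69.2 and 154 against 189, 150, 175 and 130 (0.35 ± 0.26, adjusted p = 0.36). The control range of Mki67 enclosed all 4 libraries labelled knockout, knockout replicates 1 and 3 lay above every control for Top2a, and control replicate 3 was the lowest of all 8 for each gene.

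The spread inside the groups followed the same libraries from gene to gene. Control replicate 3 was the lowest of the controls for 34 of the 46 members (73.9%) and control replicate 4 the highest for 25 (54.3%), where over all tested genes those shares were 26.1% and 24.7%. Among the libraries labelled knockout, replicate 3 was the highest for 25 members (54.3%, against 28.6% of all tested genes) and replicate 4 the lowest for 21 (45.7%, against 25.7%). The members are not independent of each other, so these counts describe 8 libraries.

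Red cell genes put those libraries in the same places as the 46 members did. The match at the low end of the knockout group came from the division members, with replicate 4 lowest for 14 of 25. Among the replication members knockout replicate 2 was lowest for 8 of 21 and replicate 4 for 7. Knockout replicate 1 was the highest of its group for 13 of the 46 members but for 0 of 15 red cell genes. A list of 16 red cell markers, 15 of them tested, was highest in control replicate 4 for 15 of 15 genes and lowest in control replicate 3 for 15 of 15. In the knockout group it was highest in replicate 3 for 13 and lowest in replicate 4 for 12. Hba-a1, an alpha globin gene, had 14371, 19634, 7320 and 41787 normalised reads in the controls, in replicate order, against 3027, 6934, 20664 and 2134 in the libraries labelled knockout. Fibroblast genes ran the other way, since 13 of 16 were highest in control replicate 3 among the controls and 12 of 16 lowest in knockout replicate 3. Fn1, the fibronectin gene and the highest of that list, had 22040, 35770, 79292 and 30729 in the controls and 38700, 90510, 46187 and 112638 in the knockout group. Col1a1, a fibrillar collagen gene and the next highest, had 58034, 13233, 30458 and 13411 against 93111, 68962, 63994 and 79975, so that control replicate 1 and not 3 was its highest control.

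**Figure D3:**
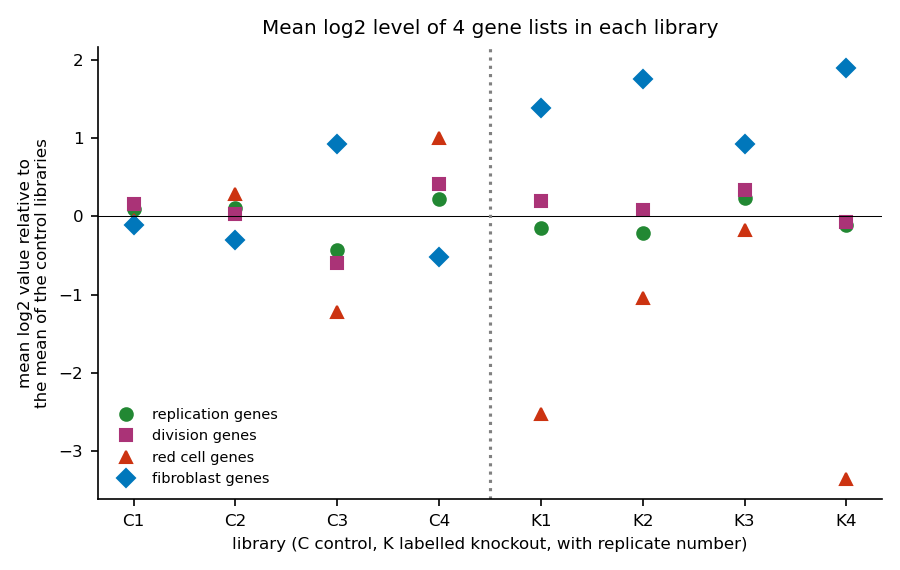
Mean log2 level of each gene list in each library, relative to the mean of the 4 control libraries (y axis, log2 units); C and K mark control and labelled knockout replicates, which have no order. Replication (21), division (25) and red cell (15) genes are lowest among the controls in C3 and highest in C4, where fibroblast genes (16) are highest and lowest.

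Between the groups, however, the lists parted. The mean level of the 46 members, relative to the mean of the controls, stood at 0.13, 0.07, -0.52 and 0.32 for the controls and 0.04, -0.05, 0.29 and -0.09 for the libraries labelled knockout, so the knockout libraries stood inside the control range. For red cell genes it was -0.05, 0.28, -1.22 and 1 in the controls and -2.52, -1.05, -0.18 and -3.35 in the knockout group. Their median difference was -1.87, with all 15 below 0, of which limma called 1 (Sptb, a spectrin gene also expressed in muscle, named after its value was seen), edgeR 1 and DESeq2 2, and 13 had an unadjusted p under 0.05. Fibroblast genes had a median difference of 1.45, with 12 of 16 called higher. Knockout replicates 1 and 4 held the lowest red cell levels of all 8 libraries, where the members' means were 0.04 and -0.09.

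The replication and division members differed slightly in that respect. Replication genes stood at -0.15, -0.21, 0.23 and -0.11 in the libraries labelled knockout and division genes at 0.20, 0.08, 0.34 and -0.07, each relative to its own control mean. The control libraries ranged from -0.43 to 0.22 for the former and from -0.60 to 0.41 for the latter. Division genes thus stayed inside their control range, and replication genes left it only in knockout replicate 3, by little (0.23 against 0.22). Under scaling without the muscle, red cell and neutrophil lists and the 50 highest genes, each list exceeded its highest control in knockout replicate 3. The values there were 0.35 against 0.20 for replication genes and 0.46 against 0.38 for division genes. Whether the lists differ was not tested.

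The genes did not follow the libraries equally. Control replicate 4 exceeded control replicate 3, the ends of the red cell order among the controls, by a median log2 of 0.84 over the members and 0.01 over all tested genes. Knockout replicate 3 exceeded knockout replicate 4, the ends of that order in the other group, by 0.38 against 0.01. In 34 members (73.9%) each difference was above 0, as in 29.1% of all tested genes. The pairs were chosen by the red cell genes, so their 15 of 15 is fixed by that choice, and the members' share restates in part the ranks given above. None of the 16 fibroblast genes was above 0 for both pairs, while neutrophil granule and satellite cell genes reached shares at or above that of the members. By the control pair Ccnb1 (2.75) came first, followed by Rrm2 (2.13), E2f8 (2.08) and Mki67 (2.04). By the knockout pair Ccnb1 (1.46) was followed by Cdc6 (1.33), Gins1 (1.29) and E2f8 (1.27). The signs of the pairs differed for 9 members: Ect2 (0.10 and -0.21), Anln (0.34 and -1.27), Cenpe, E2f1, Kif20a, Mcm6, Pola1, Pole and Tpx2. Rrm1, Tyms and Chaf1a were below 0 for both pairs. The part of red cell precursors or of any other cell type in these levels was not tested.

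**Figure D4:**
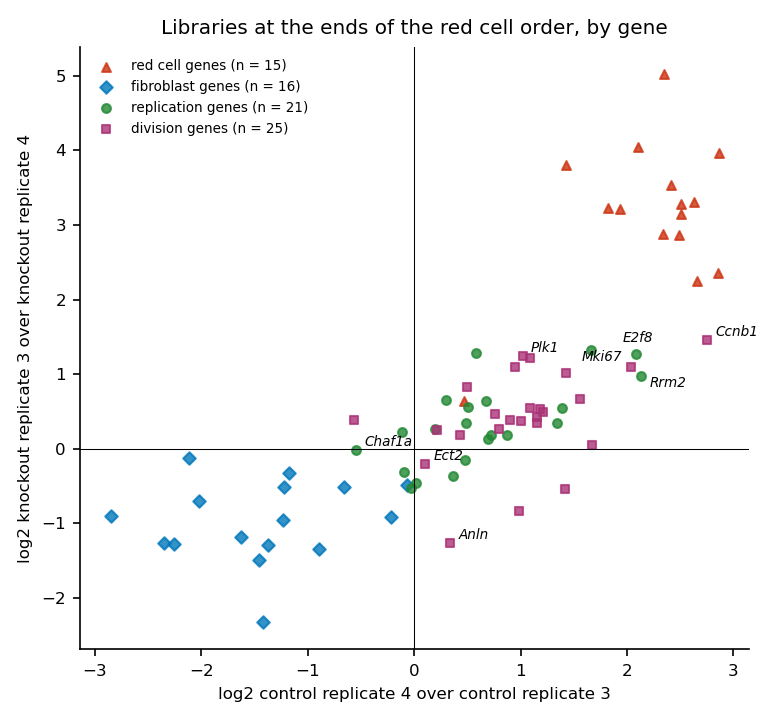
For each gene, the log2 ratio of control replicate 4 to control replicate 3 (x axis) and of knockout replicate 3 to knockout replicate 4 (y axis), the libraries at the ends of the red cell order in each group. Red cell genes lie at the upper right, fibroblast genes at the lower left and most replication and division genes between them on the red cell side, with Ect2 and Anln below 0 on the y axis.

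Other lists shared that order in part. Of the early neutrophil granule genes 4 of 4 tested were above 0 for both pairs (medians 0.52 and 1.73), of the late granule genes 6 of 8 (0.79 and 1.31), of the muscle satellite cell genes 3 of 4 and of the B cell precursor genes 2 of 5. Early neutrophil granule genes, 4 of 5 tested, which mark dividing promyelocytes, were highest in control replicate 1 (1.74 on the same scale, with 0.00 in control replicate 4) and lowest in knockout replicate 4 (-2.54). B cell precursor genes, with 5 of 11 tested, were highest in knockout replicate 1 (1.61) and lowest in knockout replicate 4 (-2.41). Macrophage genes, 7 of 8 called higher, were higher in each library labelled knockout (0.95 to 1.53) than in any control (-0.80 to 0.47).

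The wider pathway was read from lists of genes that are not among the 47. Of 39 further origin and replication genes, limma called 1 higher and 1 lower, against a background of 23.2%. Of 50 further mitosis genes it called 1 higher. edgeR called 2 of the former and 0 of the latter, and DESeq2 2 of each, with backgrounds of 22.2% and 27.6%. Rpa1, of the single-strand binding protein, fell from 1445 ± 192 to 1072 ± 104 (-0.43 ± 0.11, limma adjusted p = 0.0236). Prim2, the large primase subunit, rose from 22.9 ± 2.49 to 40.1 ± 8.19 (0.76 ± 0.24, adjusted p = 0.0459). Cep55, a gene of the final cut between daughter cells, had 10.8, 0, 5.61 and 1.1 normalised reads in the controls and 21.9, 15.4, 18.5 and 13.2 in the knockout group (adjusted p = 0.0442), too few for a dependable fold. The further mitosis genes had a median difference of 0.27 with 36 of 50 above 0, and the further replication genes one of 0.04.

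Upstream regulators were read in the same way. All 6 genes of the G1 cyclins and kinases were above 0, and 3 were called higher, where the background for higher was 11.6%. Cdk4, the kinase partner of D-type cyclins, rose from 529 ± 31.6 to 711 ± 14.9 (0.43 ± 0.08, limma adjusted p = 0.00749), Cdk6 from 146 ± 65.7 to 306 ± 74.7 (1.12 ± 0.28, adjusted p = 0.02) and Ccnd2, cyclin D2, from 389 ± 141 to 793 ± 183 (1.06 ± 0.24, adjusted p = 0.0141). Cdk6 had 97.3, 111, 242 and 135 in the controls and 245, 341, 243 and 394 in the knockout group, and Ccnd2 had 368, 302, 594 and 290 against 791, 768, 583 and 1029. Like most fibroblast genes, both were highest among the controls in replicate 3 and lowest in the other group in replicate 3; the part of fibroblasts in these differences was not tested. Of 17 genes of the RB, E2F and DREAM complexes limma called 1 higher and 3 lower, edgeR 1 in all and DESeq2 5, so the limma and DESeq2 shares are near the backgrounds of 23.2% and 27.6%. E2f6, a repressor of the family, fell from a mean of 3154 to 2124 (-0.58 ± 0.11, adjusted p = 0.00775), and Rbl2, the p130 gene of resting cells, fell by 0.24 on the log2 scale (adjusted p = 0.0481). Foxm1, an activator of mitotic genes, rose from 35.0 ± 10.6 to 60.7 ± 8.95 (0.81 ± 0.25, adjusted p = 0.0415).

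Of 7 CDK inhibitor genes, limma called 0 (1 at an unadjusted p under 0.05), edgeR 0 and DESeq2 1, with a median difference of 0.43. Of 11 tested genes of repair and checkpoint in S phase, limma, edgeR and DESeq2 each called 0, with 0 at an unadjusted p under 0.05. All these differences are relative to a scaling that sets the median gene to 0.00. Scaling without the muscle, red cell and neutrophil lists and the 50 highest genes moved that median to 0.15 and the members' median to 0.13. Under it 2705 genes over the whole table were called higher and 787 lower, against 1732 and 1729.

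**Figure D5:**
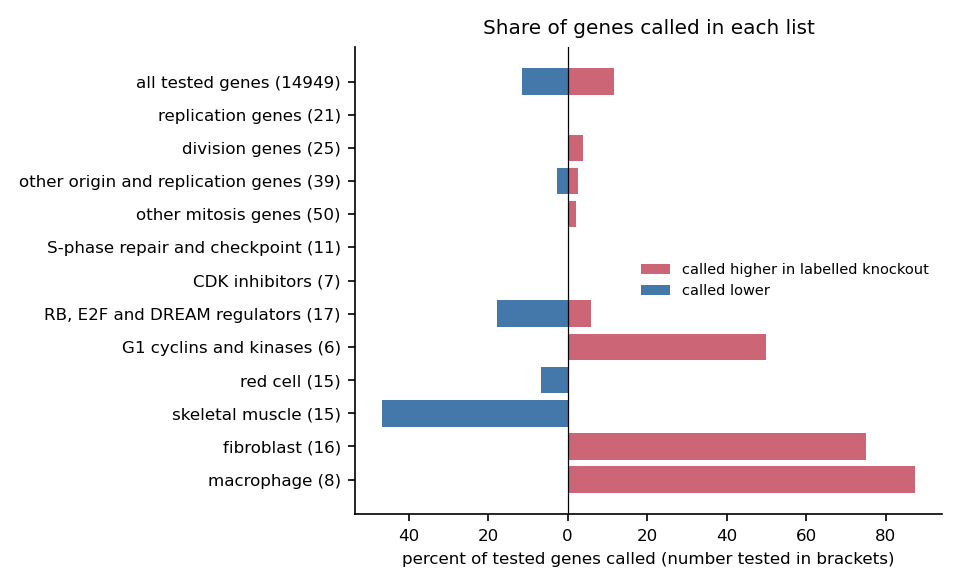
Percent of tested genes called at a limma adjusted p under 0.05 in each list (x axis), higher to the right and lower to the left, with the number tested in brackets. Replication (0 of 21) and division genes (1 of 25) lie below the 23.2% of all tested genes, and 12 of 16 fibroblast and 7 of 8 macrophage genes are called higher.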

How the data were processed

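RNA of mouse knee joints, in 8 libraries, was read as 1 table of normalised counts. Per the submitters' processing notes, HISAT2 and featureCounts were used with mm10; versions, annotation and use of strand are not given in the sources used here. The deposited values are a signal, gene counts divided by a size factor per library: 100% of values were whole multiples (within 0.02) of 1 step per library, which gave back the reads. No value column was left unmapped (0).

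Genes that reached 10 normalised reads in 4 or more libraries were tested on log2(value + 1) with limma 3.58.1 (trend, R 4.3.3), control against labelled knockout, with Benjamini-Hochberg adjustment over 14949 genes and a threshold of 0.05. A fold change is on that scale and understates the change of low genes. edgeR 4.0.16 (quasi-likelihood) and DESeq2 1.42.0 were run on the recovered reads. On simulated counts for this comparison (14722 genes, 193 changed), limma found 58.4% of changes of log2 1 and 92.3% of log2 2, with 4 false calls in 152. Those rates are for genes of the whole table, drawn independently of each other. The median standard error was 0.17 for all tested genes and 0.28 for the members, so the rates do not hold for the members.

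The members and lists were chosen with earlier results of these data known. Values per library were to be given for called members and 18 set ones, and for the 3 called genes of smallest p per pathway list and the 2 highest genes per marker list; Mcm6, Chaf1a, Chaf1b, Kif23, Anln and Ube2c were added after their values were seen. Gene positions are from GENCODE M21 (20520 rows matched, 99.2%) and promoters from RefSeq (GRCm38.p6; 39 members matched). No pair of libraries in a group agreed within sampling noise (chi-square per degree of freedom 25.79 to 66.1).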

Additional observations from a re-analysis of the deposited data

Results flagged for a closer look

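In 9 of the 92 sets of 4 libraries examined (46 members in each group), 1 library stood apart from the other 3, with a gap to its nearest neighbour beyond Dixon's 95% critical value. For independent, normally distributed values chance gives about 1 in 20. The members are not independent, and no share over all tested genes is given, so the count of 9 is not read as a result about the members. Control replicate 3 was the low one for Mcm3 (102 normalised reads), Ccna2 (44.9) and Ccnb2 (26.2). Knockout replicate 3 was the high one for Mcm3 (159) and Ccnb1 (57.6) and the low one for Anln (43.5). Mcm6 was low in control replicate 1 (119), Tyms high in knockout replicate 4 (49.3) and Cdk1 low in knockout replicate 2 (59.0). Control replicate 3 and knockout replicate 3 thus gave 6 of the 9, and they are the libraries with the lowest and the highest level of red cell genes in their groups. Anln, low in knockout replicate 3, ran against that order.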

How the results depend on the processing

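The members' median difference stayed between -0.18 and 0.18 under every alternative. The SD of the members' median level between libraries of a group was 0.27, a spread of single libraries and not of a group difference. Leaving out 1 of 4 libraries moves a group mean by only part of that library's deviation. Staying within 0.27 was therefore nearly given and is not read as a result. Members called higher numbered 0 with a minimum value of 50 (26 members tested, Ect2 not among them), 0 under quantile normalisation and 2 when scaling left out the muscle, red cell and neutrophil lists and the 50 highest genes (Ect2 and Kif20a). Of all tested genes, 29.7%, 17.2% and 23.4% were called in either direction under these settings, in that order. Members called lower numbered 3 under quantile normalisation, where 17.2% of all tested genes were called in either direction. Members whose groups did not overlap numbered 4 under that setting. No share of all tested genes is given beside that count, so it is not read as a result about the members. Leaving out 1 replicate in turn gave 0 to 2 members called higher and 0 to 2 called lower, where 11.7% to 25.7% of all tested genes were called in either direction. It gave 3 to 8 whose groups did not overlap (8 without control replicate 3), against 2 with all libraries. With 1 library fewer, groups separate more easily by chance, and no share of all tested genes is given for these settings. The rise is therefore not read as a result about the members. Calls over the whole table ran from 1751 (without knockout replicate 4) to 3841 (without knockout replicate 3), against 3461.

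With the replicate number as a block, 2018 genes and 0 members were called. The correlations of deviations between samples of the same number were 0.213, -0.118, -0.233 and -0.063. The samples numbered 1 correlated best with each other, and those of the other numbers did not correlate best with their own number. These correlations cannot settle whether the numbers pair the samples.

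Of 808 comparisons of single members with an alternative, 758 kept their direction and side of the threshold, 3 lost a call (all Ect2), 9 gained one and 38 changed sign, each from a difference of at most 0.26 in size. Without those lists and the 50 highest genes, signs changed for Birc5 (0.03), Ccna2 (0.12), Ccnb1 (0.03), Mcm3 (0.03), Mcm5 (0.00), Mcm7 (0.06), Prim1 (0.04) and Uhrf1 (0.14). Under quantile normalisation they changed for Bub1 (-0.17), Cenpe (0.00), Kif11 (-0.03), Mcm4 (-0.09), Plk1 (-0.03) and Tyms (-0.14), and under TMM for Uhrf1 (0.01). Leaving out 1 replicate gave ranges across 0 for Birc5 (-0.42 to 0.07), Bub1 (-0.14 to 0.26), Ccna2 (-0.31 to 0.08), Ccnb1 (-0.69 to 0.22), Cenpe (-0.07 to 0.43), Pcna (-0.05 to 0.18), Plk1 (-0.01 to 0.44), Prim1 (-0.21 to 0.07), Tyms (-0.01 to 0.19) and Uhrf1 (-0.27 to 0.19). The causes were not tested. Members with few reads, such as Ect2 and Ttk, are limited by depth.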

Other observations

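Of 8 ratios of members within a library, picked after their values were seen and so without a test, 2 separated the groups and 6 did not (Aurkb over Aurka, Ect2 over Mki67, Mcm6 over Mcm2, Rrm2 over Rrm1, Ccnb2 over Ccnb1 and Kif23 over Ect2). Top2a over Mki67 was 0.375, 0.312, 0.43 and 0.233 in the controls, in replicate order, against 0.627, 0.467, 0.451 and 0.718 in the libraries labelled knockout. Chaf1b over Chaf1a was 0.672, 0.365, 0.145 and 0.575 against 1.57, 0.964, 1.57 and 1.2, with the limit that Chaf1a shares exon bases with Ubxn6.

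Among the members, 12 of 47 share exon bases with another annotated gene, 2 of them on the same strand and 11 on the opposite one. Tnnc2, the partner of Ube2c, stood at 11.9 and 12.2 normalised reads beside Tnni2 at 104219 and 73309; other partners were not compared with genes of their kind.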
